A study of Mus musculus with 20 samples.

Results

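The livers of mice given a control siRNA were compared with the livers of mice given the carrier solution alone, to see what an siRNA with no liver gene as its intended target leaves behind after injection. The members were chosen by the array titles. They are the 8 arrays of mice given GL3 or SEAP-M control siRNA and the 4 arrays of vehicle mice, 12 of the 20 arrays analysed here. GL3 is a variant of the firefly luciferase reporter, SEAP is a secreted alkaline phosphatase, and what the M stands for is not given in the sources used here. The GL3 control siRNA mice and the SEAP-M control siRNA mice (4 each) received 40 µg of siRNA in Ringer's solution, and the 4 vehicle mice received Ringer's solution alone. All 12 mice had the same hydrodynamic injection, a rapid push of fluid equal to 10% of body weight into the tail vein, and their livers were taken 48 h later. The vehicle mice therefore share the injection with the siRNA mice, and no liver without an injection was analysed here. The strain, sex and age of the mice are not given in the sources used here, and neither are the siRNA sequences.

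Hydrodynamic injection drives fluid and nucleic acid out of the hepatic veins into hepatocytes, the cells that make up most of the liver. Inside the cell an siRNA is loaded into an Argonaute protein, which then pairs with messenger RNA. A strand can also pair in part with unintended transcripts. Double-stranded RNA can be read by sensors of foreign nucleic acid, such as Tlr3 and Ifih1, which switch on interferon-stimulated genes, and a large siRNA load can compete for the proteins that process microRNAs. Control siRNAs are used so that such effects, and those of the injection, can be set apart from those of silencing a liver gene.

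On each array the liver RNA of a single mouse was set against pooled RNA of 4 vehicle mice, and every level below is the log2 ratio of a mouse to that pool. A level of 0 is that of the pool. The labels do not say which dye held the pool, so the direction of the ratio, mouse over pool, is likely rather than stated; it rests on the study's account that Ppara falls with siRNAs against Ppara. If the ratio ran the other way, every sign below would turn. The arrays hold 23493 probes, and the 18790 probes annotated with exactly 1 symbol stand for 15252 genes. The ratios hold no signal intensities, so the levels of different genes cannot be compared, no gene can be called absent, and the hepatocyte identity of the tissue could be checked only as a ratio to the pool. The mean level of 13 hepatocyte markers lay between -0.10 and 0.04 in the 8 control siRNA mice and between -0.13 and -0.02 in the 4 vehicle mice. In such bulk tissue, fewer cells of a type and less RNA per cell cannot be told apart.

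One gene passed the adjusted threshold in both control groups. Ass1 encodes argininosuccinate synthase, the urea cycle enzyme that joins citrulline to aspartate. Its level was -0.10, -0.44, -0.15 and -0.33 in the GL3 mice and -0.30, -0.19, -0.22 and -0.28 in the SEAP-M mice, against 0.36, 0.50, 0.38 and 0.53 in the vehicle mice. Every one of the 8 control siRNA mice lay below every vehicle mouse. Ass1 fell by 0.69 on the log2 scale with the control siRNAs (SE 0.09, 95% interval -0.87 to -0.51, adjusted p = 0.00536, limma). It was the only one of the 23493 probes to pass the adjusted threshold of 0.05 when all control siRNA mice were compared with vehicle, 0.00426% of those tested. The fall was of the same size with each siRNA: 0.69 on the log2 scale with GL3 (adjusted p = 0.0373) and 0.69 with SEAP-M (adjusted p = 0.0406). The difference between the GL3 and SEAP-M groups was 0.00 with a 95% interval of -0.21 to 0.20. Ass1 no longer passed without vehicle replicate D (adjusted p = 0.0645), and then no probe passed in the comparison of all control siRNA mice. The call with GL3 was lost in 7 of the 8 omissions of 1 array (adjusted p up to 0.249) and that with SEAP-M in all 8 (adjusted p between 0.115 and 0.295).

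All 4 vehicle mice lay above the vehicle pool at Ass1, where a level near 0 would be that of the pool. Whether the pool was made from these 4 mice is not given. An offset common to all arrays cancels between groups, and the cause of the distance from the pool was not tested. Ass1 was not the only such probe: all 4 vehicle mice were above 0.20 at 16 probes and below -0.20 at 123 probes. For the SEAP-M mice the same counts were 218 and 218, and for the GL3 mice 71 and 90. Ass1 averaged -0.25 ± 0.11 (SD, n = 8) in the control siRNA mice and 0.44 ± 0.08 (SD, n = 4) in the vehicle mice. The 8 mice given siRNAs against Ppara lay between -0.34 and 0.21, also below every vehicle mouse.

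**Figure D1:**
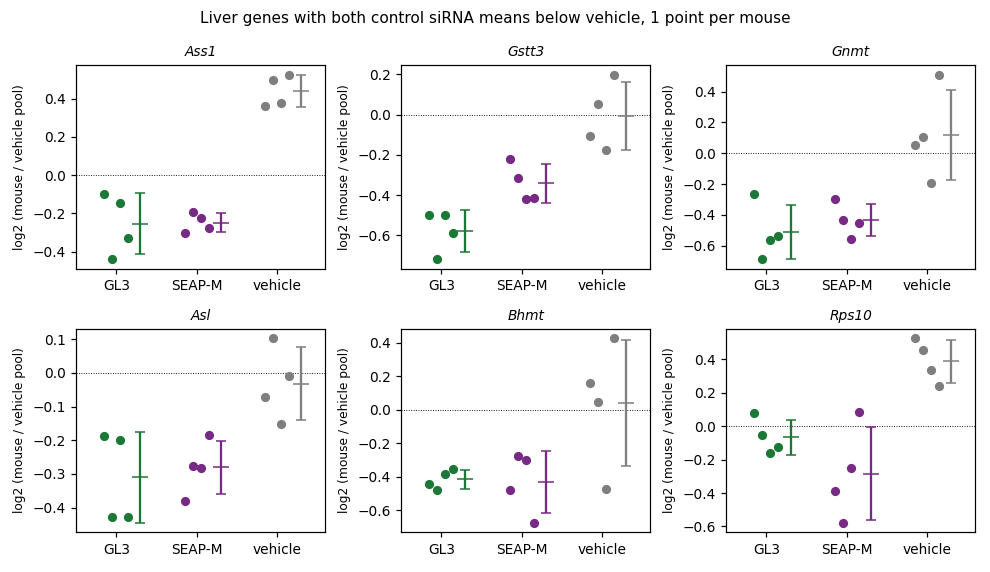
Log2 level (mouse over vehicle pool) of Ass1, Gstt3, Gnmt, Asl, Bhmt and Rps10, with 1 point per mouse and the mean and SD of each group of 4 beside the points; the dotted line is the pool. At Ass1 the 4 vehicle mice sit between 0.36 and 0.53 and the 8 control siRNA mice between -0.44 and -0.10, whereas at Bhmt 1 vehicle mouse lies among the control siRNA mice.

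A further gene passed in 1 of the control groups. Gstt3 encodes a theta-class glutathione S-transferase, a phase II enzyme that conjugates foreign compounds to glutathione. Its level was -0.50, -0.72, -0.50 and -0.59 in the GL3 mice and -0.22, -0.32, -0.42 and -0.41 in the SEAP-M mice, against -0.11, 0.05, -0.17 and 0.20 in the vehicle mice. All control siRNA mice were below all vehicle mice, and the GL3 mice were also below all SEAP-M mice. Gstt3 fell by 0.57 on the log2 scale with GL3 (SE 0.09, adjusted p = 0.0455), and with Ass1 made up the 2 probes that passed in that comparison (0.00851%). The difference was -0.33 with SEAP-M (adjusted p = 0.692) and -0.45 over both controls (adjusted p = 0.135), which did not pass. The GL3 call was lost whichever of the 8 arrays of that comparison was left out (adjusted p between 0.0559 and 0.249). The difference between the GL3 and SEAP-M effects on Gstt3, -0.23 with a 95% interval of -0.42 to -0.05, did not pass either (adjusted p = 0.353).

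No probe passed as higher in limma, in the comparison of all control siRNA mice with vehicle or in that of either control group. At an unadjusted limma p under 0.05, 264 probes were higher and 296 were lower in all control siRNA mice (2.38% of those tested), 286 and 356 with GL3 (2.73%), and 699 and 611 with SEAP-M (5.58%). An unadjusted limma p under 0.05 has a share of 0.05 when no probe differs, which was exceeded only with SEAP-M. Groups that do not overlap were found at 53 probes when the 8 control siRNA mice were set against the 4 vehicle mice (0.226%). Of these, 15 were higher and 38 lower. With 4 mice set against 4, they were found at 2.9% of probes with GL3 and 4.46% with SEAP-M. Under random labels 4 mice separate fully from 4 at a share of 0.0286, near that with GL3 and below that with SEAP-M. For 8 mice against 4 the share is 0.00202 in each direction, more than the 0.0638% higher and 0.162% lower found. A lack of overlap at a named probe is therefore not by itself a sign of a difference. The median difference over all probes was 0.00 in each of the 3 comparisons, and 128 probes differed by more than 1.5-fold between all control siRNA mice and vehicle. The comparisons with vehicle share the same 4 vehicle arrays. The median SD of a probe between mice of 1 group was 0.111 with GL3, 0.13 with SEAP-M and 0.126 with vehicle on the log2 scale.

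The probes next in order of p, none of which passed, included Gnmt, Aldh1a7 and Rps10, each with a lower mean with both siRNAs. Gnmt encodes glycine N-methyltransferase, which disposes of surplus methyl groups in hepatocytes. It was at -0.27, -0.68, -0.57 and -0.54 in the GL3 mice and -0.30, -0.43, -0.55 and -0.45 in the SEAP-M mice, against 0.05, 0.10, -0.19 and 0.51 in the vehicle mice (difference -0.59, adjusted p = 0.232). The groups do not overlap. Aldh1a7, an aldehyde dehydrogenase related to the retinaldehyde-oxidising Aldh1a1, was between -0.48 and -0.07 in the control siRNA mice, against 0.20, -0.16, 0.30 and 0.34 in the vehicle mice (difference -0.44, adjusted p = 0.254). Here vehicle replicate B lay among the control siRNA mice, and without it Aldh1a7 passed (difference -0.55, adjusted p = 0.0112). Rps10, a protein of the small ribosomal subunit, was at 0.08, -0.05, -0.16 and -0.13 with GL3 and -0.39, -0.58, -0.25 and 0.08 with SEAP-M, against 0.53, 0.45, 0.33 and 0.24 with vehicle (difference -0.56, adjusted p = 0.254). Like Ass1, Rps10 was above the pool in all 4 vehicle mice, and without SEAP-M replicate D it passed (adjusted p = 0.0434).

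The other lower probes of smallest p each had an adjusted p of 1.00. Emcn, endomucin of the endothelial surface, was between -0.51 and -0.20 in the control siRNA mice and between -0.03 and 0.06 in the vehicle mice, without overlap (difference -0.33). Sfxn1, a mitochondrial serine carrier, was between -0.46 and -0.09 in the control siRNA mice and between -0.06 and 0.08 in the vehicle mice, again without overlap (difference -0.25). Fh1, the fumarate hydratase of the citric acid cycle, differed by -0.37, with vehicle replicate A among the control siRNA mice. The adenosine kinase gene Adk differed by -0.56 at the probe with the smallest p, by -0.22 at another and by -0.17 at the third. Pgk1, a glycolytic enzyme, differed by -0.30 at 1 probe and by -0.10 at the other.

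On the higher side, the 10 probes with the smallest p did not pass either (adjusted p = 1.00 for each, limma). Sort1, the sorting receptor sortilin, was between 0.14 and 0.44 in the control siRNA mice and between -0.12 and 0.13 in the vehicle mice (difference 0.27), and its second probe differed by 0.16. Oprl1, the nociceptin receptor, was between -0.05 and 0.38 in the control siRNA mice and between -0.36 and -0.07 in the vehicle mice (difference 0.38). Arhgap24 (difference 0.51), Lrrn3 (0.49) and Dcn (0.53) were higher on average, but their groups overlap. For Fzd7 and Il34 the probe with the small p differed by 0.29 and 0.27, and the other probes of these genes by between -0.03 and 0.02.

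Of the 22 amino acid and urea cycle genes on the array, 21 had a lower mean in the control siRNA mice than in the vehicle mice, 5 were lower at an unadjusted p under 0.05, where 1.3% of all 15252 genes were, and 1, Ass1, passed (0.00656% of all genes). The median difference of the list was -0.15, against 0.00 over all genes, and -0.10 without vehicle replicate D. The mean level of the list was between -0.29 and -0.11 in the 8 control siRNA mice and between -0.09 and 0.08 in the 4 vehicle mice. With Ass1 among its members the groups do not overlap, the nearest mice being GL3 replicate A and vehicle replicate C. The separation of these mice rests on Ass1, at -0.10 in GL3 replicate A and 0.38 in vehicle replicate C. It therefore does not show a separation of the other genes of the list. The list was chosen with earlier results of these data known, so these counts only describe it. No test was made of the list as a whole.

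Asl, argininosuccinate lyase, acts on the product of Ass1 and was at -0.19, -0.43, -0.20 and -0.43 with GL3 and -0.38, -0.28, -0.28 and -0.19 with SEAP-M, against -0.07, 0.10, -0.15 and -0.01 with vehicle. The groups do not overlap, and the difference of -0.26 had an unadjusted p of 0.0031. Groups without overlap on the lower side were found for 3 genes of the list, Ass1, Gnmt and Asl, and for 0.19% of all genes. Bhmt, which remethylates homocysteine with betaine, was between -0.68 and -0.27 in the control siRNA mice and at 0.16, 0.04, -0.47 and 0.43 in the vehicle mice (difference -0.46, unadjusted p = 0.0156), so that vehicle replicate C lay among the control siRNA mice. Otc, the ornithine transcarbamylase of the urea cycle, differed by -0.25 and Slc25a15, the mitochondrial ornithine carrier, by -0.21. The remaining urea cycle enzymes gave differences near 0: -0.01 for Cps1, the carbamoyl phosphate synthase of its entry step, and 0.03 for Arg1, the arginase of its last step. The difference for Nags, which makes the activator of Cps1, was -0.01.

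**Figure D2:**
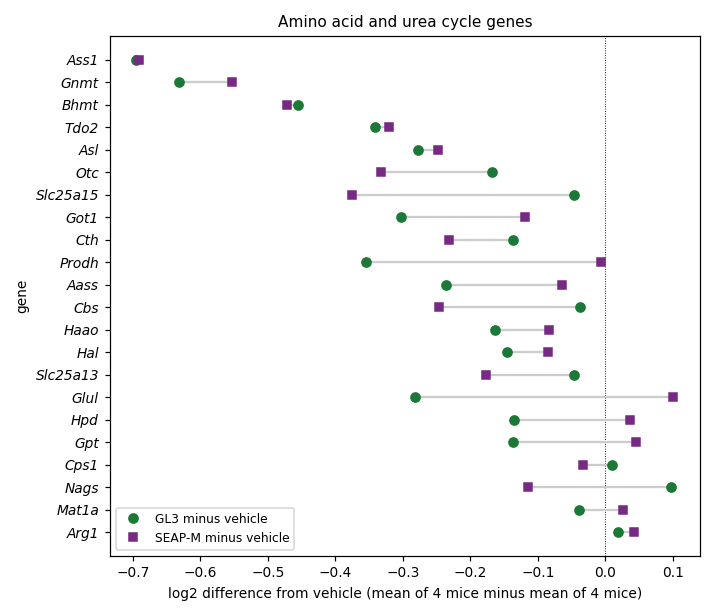
Log2 difference from vehicle of the 22 amino acid and urea cycle genes, with GL3 as circles and SEAP-M as squares (means of 4 mice minus the mean of the same 4 vehicle mice) and a grey line joining both. Ass1 lies at -0.69 with each siRNA, Prodh at -0.35 with GL3 and -0.01 with SEAP-M, and Arg1 near 0 with both.

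Prodh encodes proline dehydrogenase, which starts the breakdown of proline in mitochondria. The mean of its 4 probes was -0.28, -0.50, -0.26 and -0.47 in the GL3 mice and 0.10, 0.03, -0.15 and -0.10 in the SEAP-M mice, against -0.10, -0.01, -0.12 and 0.14 in the vehicle mice. The GL3 mice lay below all other mice of both groups. The difference from vehicle was -0.35 with GL3 (unadjusted p = 0.000295, adjusted p = 0.944) and -0.01 with SEAP-M, and the GL3 minus SEAP-M difference of -0.35 did not pass (adjusted p = 0.177). With array quality weights the 3 of its probes with the smallest p against vehicle passed between GL3 and SEAP-M (adjusted p between 0.0215 and 0.0467), and after quantile normalization 1 of these did (adjusted p = 0.0455). The 4 probes gave GL3 differences between -0.40 and -0.31.

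Of 23 genes of bile acid synthesis and transport, 16 were above vehicle on average (median 0.05). The 4 lists that follow had more genes below vehicle than above it, and none of their genes passed over both controls. Of 19 glucose and glycogen genes, 17 were lower on average (median -0.11), with a median of -0.08 with GL3 and -0.22 with SEAP-M. The mean level of this list was between -0.08 and -0.04 in the GL3 mice, inside the vehicle range of -0.12 to 0.07. It was between -0.34 and -0.16 in the SEAP-M mice. Slc37a4, the glucose-6-phosphate carrier, differed by -0.27. The glycogen branching enzyme gene Gbe1 differed by -0.41, which was -0.17 with GL3 and -0.66 with SEAP-M. Of 27 genes of fatty acid and triglyceride synthesis, 22 were lower (median -0.13). Those of smallest p were the acyltransferase Agpat2 (-0.21) and Insig2 (-0.26), which holds back the transcription of sterol synthesis genes. Of 30 phase II genes, 22 were lower (median -0.08), 5 of them at an unadjusted limma p under 0.05 (1.3% of all genes). Groups of 2 phase II genes did not overlap on the lower side (0.19% of all genes). Besides Gstt3, those of smallest p were Nnmt, which methylates nicotinamide (difference -0.62, unadjusted p = 0.00206), and the glutathione S-transferase Gsta2 (-0.45), whereas the sulfotransferase Sult5a1 was higher by 0.40 (unadjusted p = 0.0189). Of 51 oxidative phosphorylation genes, 37 were lower (median -0.04) and 7 were lower at an unadjusted p under 0.05 (1.3% of all genes). Groups of Ndufv1 and Ndufa8, subunits of complex I, do not overlap (0.19% of all genes on the lower side): Ndufv1 was between -0.21 and 0.03 in the control siRNA mice and between 0.13 and 0.25 in the vehicle mice. That list's median was -0.10 with GL3 and -0.0036 with SEAP-M.

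Of the 18 genes of retinoid handling, 11 were below vehicle (median -0.03), 4 of them at an unadjusted limma p under 0.05 (1.3% of all genes). The 18 genes included Cyp26a1, which degrades retinoic acid. Cyp26a1 was at -1.04, 0.18, -0.89 and -0.91 with GL3 and -2.35, -0.15, -0.78 and -0.89 with SEAP-M, against -0.31, 0.57, -0.68 and 0.09 with vehicle (difference -0.77, unadjusted p = 0.027). Mice of both kinds overlap widely. Of the 30 P450 genes and their receptors, 19 were below vehicle (median -0.08). At an unadjusted p under 0.05, 3 were lower, where 1.3% of all genes were, and 1 was higher, Cyp2c40 (difference 0.29), where 1.18% of all genes were. Cyp3a25, a steroid- and drug-metabolising P450, differed by -0.42.

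None of the 35 interferon-stimulated genes passed or had an unadjusted limma p under 0.05 when all control siRNA mice were compared with vehicle. Only 2.48% of all genes had such a p, so by that share a list this small would hold few or none. Of the 35, 26 were higher on average and the median difference was 0.04. With GL3, 23 were higher (median 0.03), and with SEAP-M 15 were (median -0.0040). Over both controls the 4 with the smallest p went both ways: -0.22 for Mx1, 0.22 for Oas2, 0.18 for Ifi27 and -0.12 for Ifitm3. Mx1, an antiviral GTPase, was at -0.15, -0.49, -0.02 and -0.36 with GL3 and -0.06, -0.04, -0.29 and -0.48 with SEAP-M, against 0.17, -0.17, 0.00 and -0.05 with vehicle. Oas2, a synthetase that double-stranded RNA switches on, was at -0.05, 0.33, 0.30 and -0.18 with GL3 and -0.01, 0.76, 0.05 and 0.43 with SEAP-M, against 0.25, -0.29, 0.11 and -0.16 with vehicle. At both genes mice of both kinds overlap. The mean level of the 35 genes was between -0.24 and 0.25 in the control siRNA mice and between -0.13 and 0.16 in the vehicle mice.

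Of the 12 sensors of foreign nucleic acid on the array, 7 were higher on average, with differences between -0.11 for the adaptor Myd88 and 0.14 for Dhx58. The endosomal RNA receptor Tlr3 differed by 0.02, the cytosolic RNA sensor Ifih1 by -0.06, the kinase Eif2ak2 by 0.02 and the DNA receptor Tlr9 by 0.10. The 95% interval for Tlr9 was -0.07 to 0.26. None of the 12 had an unadjusted limma p under 0.05, where 2.48% of all genes did. These values are from 48 h after the injection, and earlier times were not analysed here.

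The genes of the RNA interference machinery were higher on average for 12 of 13 members when all control siRNA mice were compared with vehicle (median 0.09), and none passed. With GL3, 6 of 13 were higher (median -0.01), and with SEAP-M 11 of 13 were (median 0.10); no test was made of the list between the siRNAs. The scaffold gene Tnrc6a, whose protein binds Argonaute to silence messages, was at -0.05, 0.05, -0.18 and -0.08 in the GL3 mice and 0.28, 0.41, 0.19 and 0.35 in the SEAP-M mice, against -0.11, 0.10, 0.23 and -0.15 in the vehicle mice (mean of 3 probes). The SEAP-M mice lay above the GL3 mice without overlap, and vehicle replicate C lay among them. The difference of -0.37 between GL3 and SEAP-M did not pass (adjusted p = 0.185). Dicer1, the nuclease that cuts microRNA precursors, differed from vehicle by 0.10, and the Argonautes Ago1 and Ago4 by 0.09 each.

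Of 28 acute phase genes, 21 were lower on average (median -0.15), but omitting 1 array moved the median to between -0.252 (without GL3 replicate B) and -0.0432 (without vehicle replicate D). Saa3, an acute phase serum amyloid A, was at -1.48, -1.21, -1.23 and -0.71 with GL3 and -1.04, -1.16, -1.03 and -1.10 with SEAP-M, against 0.47, -0.65, -1.03 and 0.55 with vehicle (mean of 2 probes, difference -0.95, unadjusted p = 0.0217, adjusted p = 1.00). The control siRNA mice lay between -1.48 and -0.71 and the vehicle mice between -1.03 and 0.55, so the groups overlap. Hpx, the heme-binding hemopexin, differed by -0.53 with SEAP-M and by -0.11 with GL3. The list's median was -0.02 with GL3 and -0.20 with SEAP-M. Among immediate-early genes Ccn2, a matricellular growth factor gene, differed by -0.64 (unadjusted p = 0.00566), and 14 of 32 genes were higher. Cell cycle genes (19 of 45 higher, median -0.01) and p53 targets (12 of 17 higher, median 0.05) held no gene with an unadjusted limma p under 0.05. Of all genes, 2.48% had such a p, so lists of these sizes would hold few or none by that share.

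**Figure D3:**
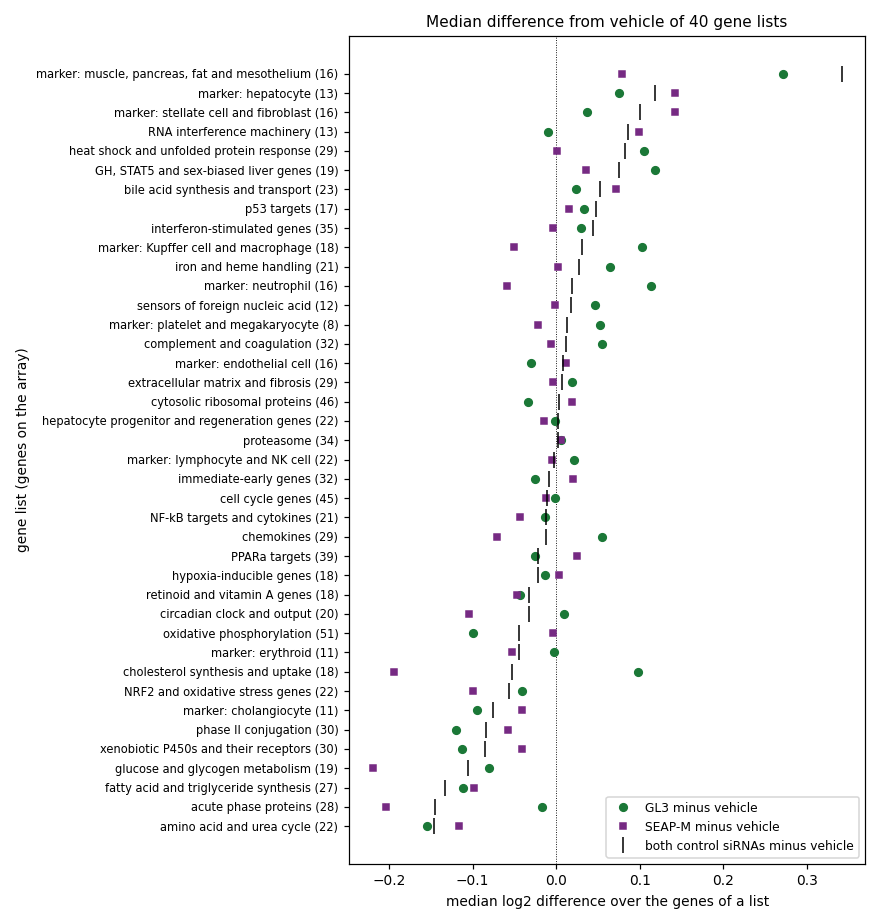
Median log2 difference from vehicle over the genes of each of 40 lists, with GL3 as circles, SEAP-M as squares and both controls together as vertical ticks, sorted by the last; the number of genes on the array is in parentheses. The amino acid and urea cycle list and the acute phase list lie at -0.15, the muscle, pancreas, fat and mesothelium list is highest at 0.34, and the cholesterol list lies at 0.10 with GL3 and -0.19 with SEAP-M.

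More probes had an unadjusted p under 0.05 between the GL3 and SEAP-M groups than between either and vehicle: 1220 probes were higher and 1129 were lower with GL3 than with SEAP-M (10% of those tested). At 8.73% of probes both groups of 4 did not overlap. None passed the adjusted threshold (0%). That count depends on the fit, since 55 probes passed after quantile normalization, 231 with array quality weights and 65 in a fit of the 12 arrays alone, 22 of them in all 3. Poli, a DNA polymerase of the lesion-bypass family, was nearest to the threshold among the probes named here. Its level was -0.11, -0.13, -0.12 and -0.09 in the GL3 mice and 0.16, 0.48, 0.38 and 0.34 in the SEAP-M mice, against 0.03, 0.02, 0.00 and 0.00 in the vehicle mice. The 3 groups do not overlap, with GL3 lowest and SEAP-M highest, and the difference between GL3 and SEAP-M was -0.45 (adjusted p = 0.0739). It passed under each of the 3 other fits (adjusted p = 0.0455, 0.00305 and 0.0267).

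With SEAP-M alone, Cbr3 had the largest difference among the probes of smallest p. Cbr3 encodes a carbonyl reductase, and was at -2.11, -1.20, -1.03 and -1.25 in the SEAP-M mice and -0.66, -0.03, -0.13 and 0.47 in the GL3 mice, against -0.11, 0.20, 0.12 and -0.27 in the vehicle mice. The difference was -1.38 with SEAP-M (adjusted p = 0.219) and -0.08 with GL3. The SEAP-M mice lay below all other mice of both groups. Snap29, a membrane fusion protein, was also lower in all SEAP-M mice (between -0.53 and -0.22) than in the vehicle mice (between -0.17 and 0.13), with a difference of -0.37. Frmd4b (difference -0.77), Gbe1 (-0.66) and Tm7sf2, a sterol reductase (-0.69), did not overlap between SEAP-M and vehicle mice. None of these passed, and the probe that passed with SEAP-M was that of Ass1 (0.00426%).

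On the higher side SEAP-M mice had higher mean levels of several stromal genes. Dcn, the matrix proteoglycan decorin, was at 1.27, 0.43, 0.70 and 0.69 in the SEAP-M mice, against -0.44, -0.02, 0.35 and 0.06 in the vehicle mice (difference 0.78, adjusted p = 0.631). Of the 16 markers of stellate cells and fibroblasts, 11 were higher with SEAP-M, 5 of them at an unadjusted p under 0.05, as were 3.17% of all genes. The mean level of these markers was between 0.16 and 0.28 in the SEAP-M mice, between 0.00 and 0.14 in the GL3 mice and between -0.20 and 0.19 in the vehicle mice. Their part in the other differences was not tested. The extracellular matrix and fibrosis list did not share this rise: 14 of its 29 genes were higher with SEAP-M (median -0.0042). None of these 29 genes had an unadjusted limma p under 0.05 in either direction, where 5.85% of all genes did. Id3, an inhibitor of helix-loop-helix factors that responds to bone morphogenetic protein signals, was at 0.53, 0.70, 0.72 and 1.34 in the SEAP-M mice, against -0.58, -0.41, 0.23 and 0.40 in the vehicle mice (mean of 2 probes, difference 0.91, adjusted p = 0.543). Kmt2c, a histone methyltransferase gene, differed by 0.61 at the probe of smallest p, but by between -0.08 and 0.24 at its other 3 probes.

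With GL3 alone, the largest difference among the higher probes of smallest p was that of a muscle gene. Tnnc2, a troponin of fast skeletal muscle, was at 2.93, 2.33, 2.26 and 0.30 in the GL3 mice and 0.59, 0.07, 0.96 and -0.05 in the SEAP-M mice, against -0.11, -0.81, -0.37 and 0.92 in the vehicle mice. The GL3 difference was 2.04 (adjusted p = 1.00). Acta1, the skeletal muscle actin, was at 2.83, 2.53, 1.88 and 0.46 in the GL3 mice and 1.18, -0.62, 1.23 and -0.37 in the SEAP-M mice, against -0.32, -0.99, -0.89 and 1.21 in the vehicle mice. The same 3 GL3 mice, A, B and C, were high at both genes, and vehicle replicate D was above GL3 replicate D at both. Ctrb1, a digestive proenzyme of the exocrine pancreas, was at -1.14, 0.52, 1.08 and 0.38 in the GL3 mice and 1.14, 0.31, 0.76 and 1.17 in the SEAP-M mice, against -0.50, 0.11, 0.59 and -1.20 in the vehicle mice. Acta1 and Ctrb1, but not Tnnc2, belong to a list of 16 markers of neighbouring tissues, of which 13 were higher with the control siRNAs. The mean level of the list was between -0.02 and 0.59 in the control siRNA mice and between -0.20 and 0.05 in the vehicle mice. Adipoq, Lep and Msln, markers of fat and mesothelium, differed by between -0.11 and 0.01. The part of this signal in the other differences was not tested.

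Other GL3 probes of smallest p did not pass either. Xlr4b was at 1.29, 0.22, 1.62 and 0.50 in the GL3 mice, against -0.08, 0.00, -0.12 and -0.39 in the vehicle mice (difference 1.06, adjusted p = 1.00). Pdia6, a disulfide isomerase of the endoplasmic reticulum, was between 0.31 and 0.54 with GL3 and between -0.12 and 0.13 with vehicle (difference 0.40). Slc27a5, which activates bile acids and fatty acids in the liver, differed by -0.48 at 1 probe and by between -0.15 and -0.13 at the other 3. Ehhadh, the bifunctional enzyme of peroxisomal fatty acid oxidation and a known PPARα target, was at -0.29, -0.56, -0.28 and -0.16 in the GL3 mice and -0.05, -0.07, -0.07 and -0.23 in the SEAP-M mice, against 0.02, 0.05, -0.03 and 0.04 in the vehicle mice. The difference was -0.34 with GL3 and -0.12 with SEAP-M, and all control siRNA mice lay below all vehicle mice.

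**Figure D4:**
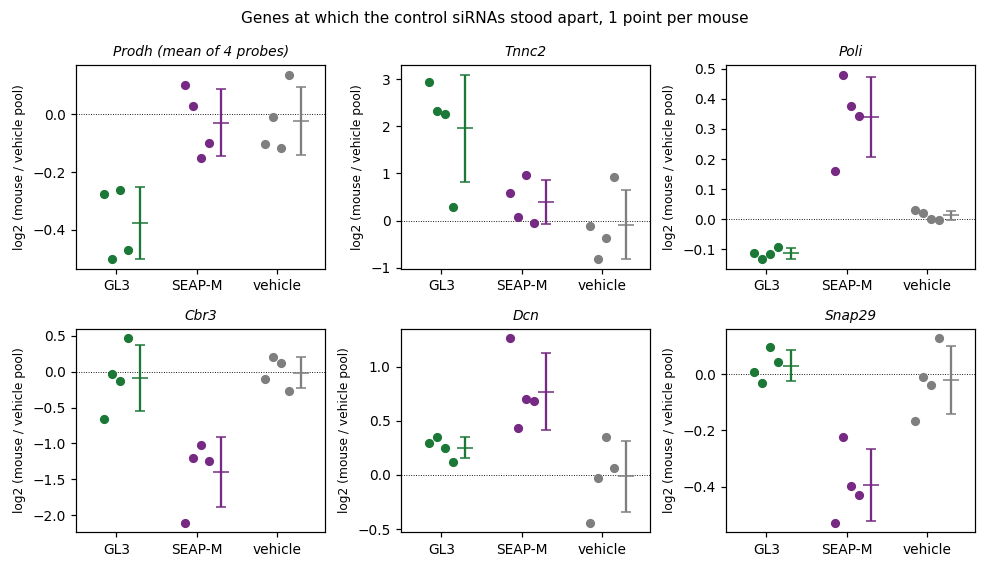
Log2 level (mouse over vehicle pool) of Prodh (mean of 4 probes), Tnnc2, Poli, Cbr3, Dcn and Snap29, with 1 point per mouse and the mean and SD of each group of 4 beside the points. At Poli the SEAP-M mice (0.16 to 0.48) and the GL3 mice (-0.13 to -0.09) lie on either side of the vehicle mice (0.00 to 0.03), and at Tnnc2 3 of the 4 GL3 mice lie above 2.

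Cholesterol synthesis and uptake was the list with the largest median difference between the siRNAs among the 40. With GL3, 14 of 18 genes were above vehicle (median 0.10), with SEAP-M 1 of 18 was (median -0.19), and 17 of 18 were higher with GL3 than with SEAP-M (median 0.31), 5 of them at an unadjusted p under 0.05, as were 5.74% of all genes. Sqle, the squalene epoxidase, differed from vehicle by 0.46 with GL3 and by -0.45 with SEAP-M. The spread between mice of a group was large: the mean level of the list was between -0.46 and -0.02 in the SEAP-M mice, between -0.12 and 0.42 in the GL3 mice and between -0.53 and 0.32 in the vehicle mice. Vehicle replicate C, at -0.53, was below every SEAP-M mouse.

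Ppara, the gene targeted in the other groups of the study, and its targets Cpt1a and Acadl, which carry and oxidise fatty acids, were measured as a check on the control siRNAs. Ppara (mean of 4 probes) was at 0.04, 0.20, 0.00 and 0.15 with GL3 and 0.80, -0.16, 0.12 and -0.07 with SEAP-M, against 0.22, -0.11, -0.03 and 0.15 with vehicle. SEAP-M replicate A was far above the other mice, at all 4 probes, and the remaining control siRNA mice lay in or near the vehicle range. The difference of 0.08 had p = 0.701 in a two-sided exact permutation test of 8 mice against 4, whose smallest p is 0.00202. It was 0.04 with GL3 (exact p = 0.686) and 0.12 with SEAP-M (exact p = 0.8286), where the smallest p is 0.0286, and without SEAP-M replicate A it was -0.02 over all control siRNA mice and -0.09 with SEAP-M. The fit gave a 95% interval of -0.23 to 0.39 for Ppara over both controls. Cpt1a differed by -0.02 (exact p = 0.723) and Acadl by -0.06 (exact p = 0.36), and the adjusted p over the 9 tests of these 3 genes was 0.932 or higher. Of 39 PPARα targets, 19 were above vehicle and 20 below (median -0.02).

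**Figure D5:**
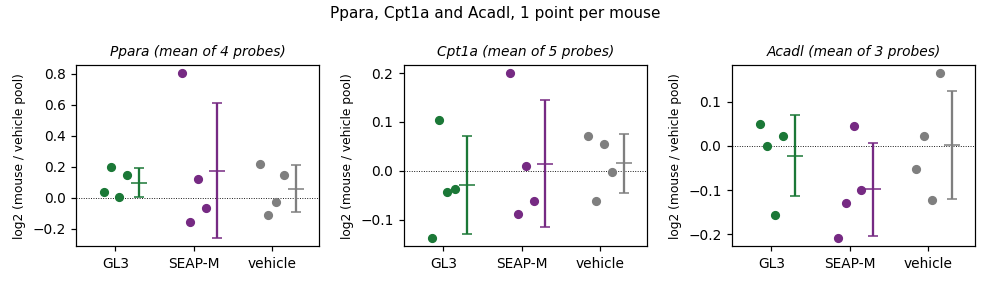
Log2 level (mouse over vehicle pool) of Ppara (4 probes), Cpt1a (5 probes) and Acadl (3 probes), as the mean of the probes, with 1 point per mouse and the mean and SD of each group of 4. SEAP-M replicate A lies at 0.80 for Ppara, while the other control siRNA mice lie between -0.16 and 0.20.

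The interquartile range of the log10 ratios of an array was 0.0595 ± 0.0121 (SD, n = 8) in the control siRNA mice and 0.0532 ± 0.0060 (SD, n = 4) in the vehicle mice (two-sided exact permutation p = 0.4, adjusted over 3 comparisons p = 0.6). It was highest in SEAP-M replicate A, at 0.0852. Over all probes, the correlation between arrays had a median of 0.121 over the 6 pairs of GL3 mice, 0.231 over those of SEAP-M mice and -0.081 over those of vehicle mice, which all share the same pool. For pairs of a GL3 and a SEAP-M mouse it was 0.117. Markers of blood and immune cells overlapped between control siRNA and vehicle mice: the mean level of 16 neutrophil markers was between -0.41 and 0.58 in the control siRNA mice and between -0.28 and 0.14 in the vehicle mice. Of 18 macrophage markers, 11 were above vehicle over both controls (median 0.03). The siRNAs differed here: 14 of 18 were above vehicle with GL3 (median 0.10) and 5 of 18 with SEAP-M (median -0.05). The Kupffer cell gene Clec4f differed by 0.57 over both controls and was the 1 marker of this list higher at an unadjusted limma p under 0.05.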

How the data were processed

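The authors deposited log10 ratios of each mouse liver to a pool of 4 vehicle mice from 2-colour custom arrays; their normalization is not given in the sources used here, and no signal, dye swap or ratio error was used. Array medians lay between -0.0093 and 0.006, so the deposited log10 values were kept and converted to log2. Of 469860 values, 40 stood at the limit, 2 in size. limma 3.58.1 in R 4.3.3 was fitted with 1 mean per group over all 20 arrays, and p-values were Benjamini-Hochberg adjusted over 23493 probes, or over 15252 gene means for lists and genes named from them. Single genes and array spreads were compared with two-sided exact permutation tests in Python 3.11.15. The fit was tested on simulated data. Symbols are those of the array annotation; 4638 probes have none and 65 have several. Of 1110 list entries, 948 matched. Members and lists were chosen with earlier results of these data known. Named genes are up to 10 probes per direction and comparison with vehicle, ranked by change among those that passed or, where fewer than 5 passed, by p, up to 4 members per list, and Ppara, Cpt1a and Acadl; other list members were named after their values were seen. Each array is a separate mouse, per the labels. Alternatives were other scalings, weights, moderation, thresholds, a replicate block, fewer arrays or probes, and each array left out.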

Additional observations from a re-analysis of the deposited data

Results flagged for a closer look

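In 19 of 288 groups of 4 mice, the highest or lowest mouse lay apart from the other 3 by more than Dixon's 95% critical value for the gap as a share of the group's range. Chance alone flags about 1 group in 20. Values below are log2 ratios of a mouse to the vehicle pool. Among the GL3 mice, replicate B was apart at Sowahb (0.3824), Cyp26a1 (0.1814) and Ndufv1 (-0.2113). Replicate C was apart at Gbe1 (0.2322), Btbd2 (2.811, where the nearest mouse was at 0.7099), Osgin1 (-0.2149) and the Kmt2c probe (-0.02359). Replicate D was apart at Cpox (-0.01528) and Ifi27 (0.2).

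Among the SEAP-M mice, replicate A was apart at Lhx2 (1.046), Slc27a5 (0.4245) and Ccn2 (-1.15), replicate B at Cyp4f14 (-0.5185) and Clec4f (0.3485), and replicate D at Ehhadh (-0.2252). Among the vehicle mice, replicate B was apart at Psma3 (-0.1316), replicate C at Agpat2 (-0.2621) and Atp5pb (-0.1887), and replicate D at the Kmt2c probe (-0.2704).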

How the results depend on the processing

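In limma, 1 probe passed over both controls, 2 with GL3, 1 with SEAP-M and 0 between GL3 and SEAP-M (2349 there at an unadjusted p under 0.05). These counts moved to 1 with GL3 and 55 between the siRNAs after quantile normalization, to 4 over both controls (Ass1, Gstt3 at adjusted p = 0.0121, Gnmt at 0.0227 and Rps10 at 0.044), 3 with GL3 (Gnmt at 0.0441 the third) and 231 between the siRNAs with array quality weights, and to 1 with GL3 and 65 between the siRNAs in a fit of the 12 arrays alone. A filter at 1.5-fold left 1 with GL3. An adjusted p under 0.01 and an ordinary linear model each left 0 with GL3 and 0 with SEAP-M. Leaving out 1 array in turn gave 0 to 2 over both controls, 0 to 1 with GL3, 0 to 1 with SEAP-M and 0 to 1 between the siRNAs. The Ass1 call was lost without vehicle replicate D over both controls (adjusted p = 0.0645), in 7 of the 8 omissions with GL3 and in all 8 with SEAP-M. The difference over both controls was still -0.66 without vehicle replicate D, and Ass1 kept its direction in every omission. The causes of these shifts were not tested.

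With the replicate letter as a replicate block, 0 probes passed with GL3 and 0 with SEAP-M, and 1 over both controls (Ass1, adjusted p = 0.0311). Of 12 same-letter pairs, 4 had a correlation of deviations over 0.1 (range -0.2 to 0.312), and 3 of 12 arrays correlated best with their own letter, so the letters were not taken to pair the mice.

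Omitting 1 array turned the sign of some small differences. Ppara ran between -0.01572 (without SEAP-M replicate A) and 0.1324 over both controls, between -0.01442 and 0.09371 with GL3 and between -0.09086 and 0.2284 with SEAP-M; in the fit it ran between -0.02512 and 0.1345. Cpt1a with SEAP-M ran between -0.06187 and 0.03392, Acadl with GL3 between -0.06663 and 0.02885, and the interquartile range with GL3 between -0.001642 and 0.004075. The list median ran between -0.02677 and 0.03456 for PPARα targets. Without its sign turning, it ran between 0.0462 and 0.1937 for hepatocyte markers, -0.252 and -0.0432 for acute phase genes, and -0.187 and -0.0973 for amino acid and urea cycle genes. It also kept its sign between -0.168 and -0.0885 for fatty acid and triglyceride synthesis, and -0.168 and -0.0737 for glucose and glycogen genes. The same held between -0.121 and -0.0399 for phase II genes, -0.118 and -0.0388 for P450s, and -0.0729 and -0.0249 for oxidative phosphorylation. Bile acid genes ran between 0.0148 and 0.0815 and RNA interference genes between 0.0427 and 0.107. Of 2343 results for named genes under the alternatives, 2298 kept their direction and side of the threshold. Quantile normalization was not run for array spread, which it removes. With 4 mice a group, an exact test cannot go below p = 0.0286, and without signal intensities the precision of single ratios is unknown.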
